A study of Mus musculus with 6 samples.

Results

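The 9 genes, given in the deposited table by the symbols Cd36, Msr1, Slc27a2, Slc27a4, Fabp1, Fabp2, Fabp4, Fabp5 and Dbi, were read across 6 mouse liver RNA-seq libraries. They were taken by symbol from the 55536 gene rows of the table, and each of the 9 symbols matched 1 row. They encode proteins that carry fatty acids, their acyl-CoA esters or modified lipoproteins across the cell surface or through the cytosol.

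The liver takes up fatty acids from the blood, and in hepatocytes they are either oxidized, stored in lipid droplets or exported in lipoproteins. At the surface, CD36 binds fatty acids and oxidized lipoproteins, and the SLC27 proteins couple entry of a fatty acid to its activation with coenzyme A. Inside the cell, small barrel-shaped FABP proteins hold fatty acids in solution, and DBI, also called acyl-CoA binding protein, holds the activated esters. Each FABP has its own main tissue, and FABP1 is the liver form.

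All 6 libraries came from C57BL/6 mice of 8 to 10 weeks with floxed VMP1, meaning that part of Vmp1 can be cut out by Cre recombinase. The 3 WT libraries are from livers of mice given an adeno-associated virus without a transgene (AAV8-TBG-null). The 3 libraries labelled H-VMP1 KO are from mice given the same kind of virus with Cre (AAV8-TBG-cre), and both groups received virus 2 weeks before. The TBG promoter is active in hepatocytes, so other liver cells keep the intact gene, and WT mice here also carry the floxed alleles and the virus. Values are TPM, a length-corrected transcript abundance that sums to 1000000 in each library, so levels can be compared between genes. Read numbers cannot be had from TPM, and the depth behind each value is unknown. The labels do not say whether the samples of a group are separate animals. The p-values therefore measure only how much these samples vary, which may be technical.

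Vmp1 itself had 70.7, 96.5 and 88.6 TPM in the WT libraries, against 157, 136 and 137 TPM in those labelled knockout, which as a whole-gene value goes against the label. Its log2 fold change was 0.75 as deposited (adjusted p = 3.8e-04) and turned to -0.16 after median-of-ratios scaling (adjusted p = 0.25). The floxed exons are not named in the labels, so 1 value per gene cannot check the deletion. All directions given here depend on the group labels being right. The 22 major urinary protein genes (Mup) held 11.6 to 21.2% of TPM in WT and 0.341 to 0.545% in the labelled knockout. Most genes were higher in the labelled knockout as deposited, with a median log2 fold change of 0.77 over 12796 tested genes. Median-of-ratios scaling, under which the median gene hardly changes, moved fold changes by a median of -0.81, so values after it are given beside those as deposited. Fold changes are labelled knockout minus WT on the log2(TPM + 1) scale ± SE with n = 3 libraries a group, and a gene was called at a Benjamini-Hochberg adjusted p from limma under 0.05. For genes of low level this pseudocount makes changes look smaller.

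Fabp1, Fabp2, Slc27a2 and Dbi fell, Cd36, Fabp4 and Msr1 rose, and Fabp5 and Slc27a4 were called higher as deposited but not with median-of-ratios or quantile scaling. All 9 genes had at least 1 TPM in each of the 6 libraries and passed the filter on low values without help from one group. As deposited, 5 were called higher and 4 lower, where 74.5% and 10.7% of all tested genes were called, and 85.2% in either direction. With median-of-ratios scaling 3 were called higher and 4 lower, against 36.2% and 35.6% of all genes. Quantile normalization gave the same numbers, against 35.3% and 35.4%, and a fit with the replicate number as a block gave 5 and 4, against 73.7% and 10.4%. The median log2 fold change of the 9 genes was 0.76, beside 0.77 for all tested genes. In no gene of the 9 did the groups overlap, a property shared by 86.8% of all tested genes.

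**Figure D1:**
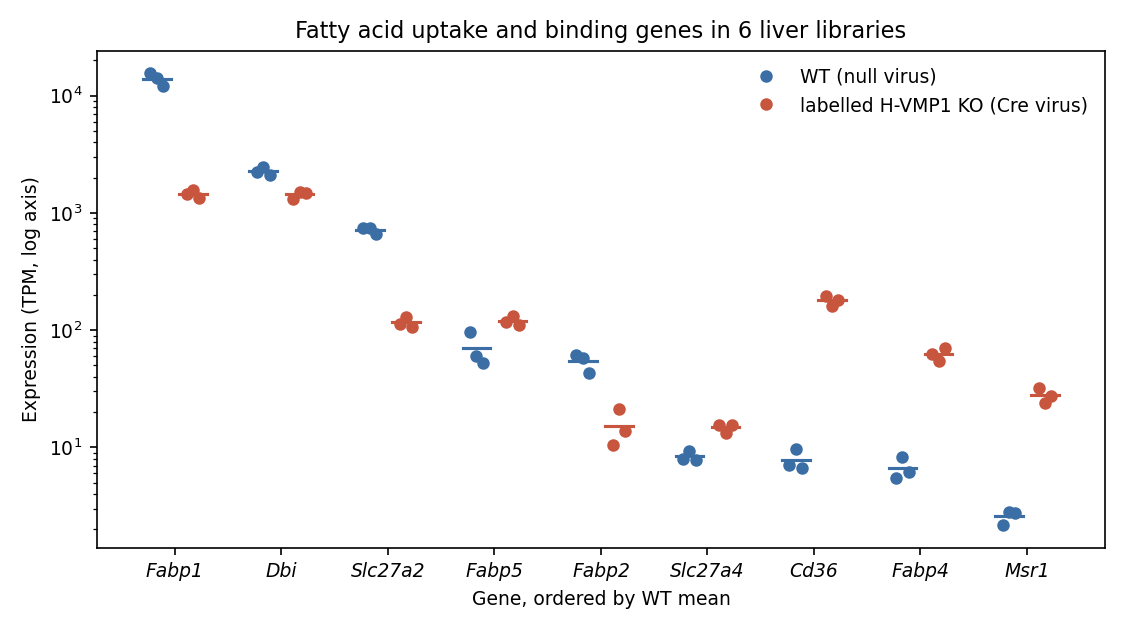
Expression of the 9 genes in each library, in TPM on a log axis, ordered by the WT mean. Points are single libraries (3 WT, 3 labelled H-VMP1 KO) and short lines are group means. Fabp1, the highest gene in WT, lies near Dbi in the labelled knockout, while Cd36 moves from the low end to the third place.

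Promoter sequences are shown for Fabp1 and Cd36, the genes of this set with the largest fall and the largest rise, since PPAR receptors are known to act on both. PPAR receptors bind DR1 elements, direct repeats spaced by a single base. RefSeq sequence of GRCm38.p6 held a promoter for 6 of the 9 genes. The stretches run from 250 bases before the RefSeq start, 5′ to 3′ on the strand of the gene, and stop before any exon that GENCODE M21 annotates for the gene. Capitals mark matches to the motifs searched.

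Fabp1, chr6:71199629-71199826, plus strand: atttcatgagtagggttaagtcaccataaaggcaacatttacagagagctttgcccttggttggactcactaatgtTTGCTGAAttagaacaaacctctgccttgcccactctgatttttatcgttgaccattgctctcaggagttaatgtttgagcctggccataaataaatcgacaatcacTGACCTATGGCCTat
Cd36, chr5:17835897-17836146, minus strand: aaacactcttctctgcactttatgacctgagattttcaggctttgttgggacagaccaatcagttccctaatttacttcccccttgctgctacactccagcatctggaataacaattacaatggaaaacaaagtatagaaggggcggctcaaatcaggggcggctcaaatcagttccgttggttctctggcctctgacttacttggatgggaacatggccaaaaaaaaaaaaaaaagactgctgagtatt

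The motifs, searched on both strands, were DR1 (AGGNCA repeated after 1 free base), an HNF1 element (GTTAAT, 1 free base, ATTNAC), an antioxidant response element (TGACNNNGC), a C/EBP element (TTGCNNAA) and the TATA box (TATAAA). The Fabp1 window holds a DR1 match, TGACCTATGGCCT, on the minus strand 67 bases before the RefSeq start, and a C/EBP match, TTGCTGAA, 174 bases before it. A TATA box match at 30 bases and an antioxidant response element match at 9 bases before the RefSeq start lie in what GENCODE annotates as exon and are not printed. Of 32851 RefSeq promoter windows of 250 bases, 0.338% held the DR1 letters, 9.56% the C/EBP letters, 12.4% the TATA letters, 10.2% those of the antioxidant element and 0.0548% those of HNF1. The Fabp2 window held a C/EBP match, TTGCCTAA, and the windows of Cd36, Dbi, Slc27a2 and Slc27a4 held none of these letters. Fabp1 was thus the single gene among the 6 with a DR1 match in this window, which is a description of letters and not of binding. The Cd36 window lies inside the span that GENCODE gives the gene, which has 6 transcripts there. It ends at a RefSeq start 179 bases from the nearest GENCODE start. Other starts of Cd36 were not searched, so the lack of a match holds for this window only.

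Among the surface proteins, Cd36 rose most. Cd36 (ENSMUSG00000002944, GRCm38 chromosome 5, 17781690 to 17888801, minus strand, protein-coding) encodes a class B scavenger receptor also called fatty acid translocase, which is low in normal mouse hepatocytes and abundant in macrophages, capillaries and fat. Its level was 7.06, 9.63 and 6.66 TPM in WT and 196, 162 and 181 TPM in the labelled knockout. Every labelled knockout library lay far above every WT library, and the means differed 23.1-fold. Cd36 had a log2 fold change of 4.37 ± 0.14 (adjusted p = 1.8e-08), and 3.51 ± 0.10 with adjusted p = 5.1e-07 after median-of-ratios scaling. Among 12796 tested genes it was the 71st highest change. The place of Cd36 among all genes by level, which does not depend on a scaling factor, went from between 5246 and 5999 in WT to between 613 and 717.

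Msr1 (ENSMUSG00000025044, chromosome 8, 39581685 to 39642673, minus strand) encodes the class A scavenger receptor of macrophages, which takes up modified lipoproteins and is not a fatty acid carrier itself. Its level was 2.17, 2.83 and 2.74 TPM in WT and 32.3, 24.1 and 27.7 TPM in the labelled knockout. On the log2 scale Msr1 changed by 3.02 ± 0.13 with adjusted p = 7.2e-08, and 2.23 ± 0.11 with adjusted p = 3.3e-06 after median-of-ratios scaling. Msr1 rose with both scalings, and was the lowest of the 9 genes in WT but not in the labelled knockout. Macrophage markers moved the same way: 12 of 12 on the macrophage and monocyte list were called higher on deposited TPM. All 12 kept this call after median-of-ratios scaling. Among all tested genes the share called higher was 74.5% before that scaling and 36.2% after it. The summed level of the 12 markers went from 39.9 to 58.6 TPM in WT to 578 to 715 TPM. Of these 12, Cd14, Itgam, Ccr2, Ly6c2 and Cx3cr1 passed the filter on low values only through the labelled knockout, so their direction was fixed by it. Ptprc, with 0.64, 1.07 and 0.81 TPM in WT, also needed the labelled knockout libraries to pass. Adgre1, the F4/80 antigen of macrophages, had 1.77, 2.69 and 3.08 TPM in WT, and the labelled knockout had 18.1, 16.2 and 23.6 TPM. The part of the macrophage markers in the changes of Msr1, Cd36, Fabp4 and Fabp5 was not tested. In bulk tissue, fewer or more cells of a type and less or more RNA per cell cannot be told apart.

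Slc27a2 fell most among the surface proteins. Slc27a2 (ENSMUSG00000027359, chromosome 2, 126552407 to 126588243, plus strand) encodes FATP2, a fatty acid transporter and very-long-chain acyl-CoA synthetase abundant in liver. Its level was 742, 737 and 660.2 TPM in WT and 113, 130 and 106 TPM in the labelled knockout, or 16.3% of the WT mean. Limma gave Slc27a2 a log2 fold change of -2.61 ± 0.11 (adjusted p = 7.6e-08), and -3.52 ± 0.11 after median-of-ratios scaling. It was the 149th lowest change of all tested genes, and its place by level went from between 122 and 141 in WT to between 903 and 1176.

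Slc27a4 (ENSMUSG00000059316, chromosome 2, 29802634 to 29817522, plus strand) encodes FATP4, a related transporter known from gut and skin. Its level was 7.99, 9.36 and 7.77 TPM in WT and 15.6, 13.3 and 15.7 TPM in the labelled knockout. All labelled knockout libraries were above WT, and limma gave 0.76 ± 0.11 on the log2 scale (adjusted p = 1.3e-04). That is the size of the shift of all genes, and with median-of-ratios scaling the value was -0.08 ± 0.07 (95% interval -0.25 to 0.09, adjusted p = 0.35). By level Slc27a4 held places 5332 to 5577 in WT and 5395 to 5740 in the labelled knockout, which overlap. A change of Slc27a4 relative to other genes was therefore not detected.

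In the cytosol, Fabp1 lost most of its high level. Fabp1 (ENSMUSG00000054422, chromosome 6, 71199827 to 71205023, plus strand) encodes the liver fatty acid binding protein, a known target of PPARalpha and one of the most abundant hepatocyte proteins. Its level was 15497, 14041 and 11975 TPM in WT and 1457, 1580.2 and 1329.9 TPM in the labelled knockout. All labelled knockout libraries lay far below WT. Their mean was 10.5% of WT, and Fabp1 alone held 1.38 ± 0.177% of all TPM in WT and 0.146 ± 0.0125% in the labelled knockout (SD, n = 3). For Fabp1 this was a log2 fold change of -3.24 ± 0.15 (adjusted p = 8.2e-08), and -4.16 ± 0.14 after median-of-ratios scaling. It was the 89th lowest change among tested genes, and its place by level went from between 13 and 21 to between 72 and 94.

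Fabp2 (ENSMUSG00000023057, chromosome 3, 122895072 to 122899506, plus strand) encodes the intestinal form. Its level was 60.9, 58.4 and 43.5 TPM in WT and 10.4, 21.2 and 13.9 TPM in the labelled knockout. The groups were apart, though the labelled knockout libraries differed among themselves more, in proportion, for Fabp2 than for the other genes that fell. Fabp2 had a log2 fold change of -1.81 ± 0.25 (adjusted p = 3.7e-04), and -2.69 ± 0.26 after median-of-ratios scaling. Of 10 enterocyte markers, Sis, Alpi, Cdx1 and Cdx2 were listed at 0 in all 6 libraries, Lct was at most 0.13 TPM and Vil1, the gene of the brush border protein villin, at most 0.3 TPM. Cdh17 was listed at 0 in WT and had 0.49 to 0.85 TPM in the labelled knockout, and Slc5a1 had 0.09 to 0.19 and 0.49 to 0.64 TPM. The lipoprotein genes Apoa4 and Mttp, which liver also expresses, had means of 64.9 and 69.6 TPM in WT and 251 and 73.8 TPM in the labelled knockout. The part of these markers in the level of Fabp2 was not tested.

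Fabp4 rose while Fabp5 depended on the scaling. Fabp4 (ENSMUSG00000062515, chromosome 3, 10204088 to 10208576, minus strand) encodes the form known from adipocytes, macrophages and capillary endothelium. Its level was 5.46, 8.36 and 6.22 TPM in WT and 62.6, 54.7 and 70.7 TPM in the labelled knockout, with means that differed 9.38-fold. Fabp4 changed on the log2 scale by 3.06 ± 0.15 with adjusted p = 1.8e-07, and 2.21 ± 0.13 with adjusted p = 5.7e-06 after median-of-ratios scaling. Of 7 adipocyte markers, Lep was listed at 0 in every library, and Adipoq, the gene of the fat hormone adiponectin, was at most 0.05 TPM, Plin1 and Retn at most 0.12 and 0.04 TPM, and Cfd at most 0.26 TPM. The lipid droplet gene Cidec rose from a mean of 1.63 to 11.5 TPM (2.28 on the log2 scale, adjusted p = 0.004), and the lipase gene Lipe went from 6.66 to 5.03 TPM. Their part in the rise of Fabp4 was not tested. Endothelial markers rose, 12 of 12 called higher as deposited and 9 of 12 after median-of-ratios scaling, where 74.5% and 36.2% of all tested genes were. Their sums were 76.3 to 84.7 TPM in WT and 214 to 262 TPM in the labelled knockout.

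Fabp5 (ENSMUSG00000027533, chromosome 3, 10012548 to 10016607, plus strand) encodes the epidermal form, also made by macrophages. Its level was 96.8, 60.3 and 52.4 TPM in WT and 118, 131 and 112 TPM in the labelled knockout. WT replicate 1 stood above the other WT libraries, but below all of the labelled knockout. The log2 fold change of Fabp5 was 0.82 ± 0.21 with adjusted p = 0.0071 as deposited, -0.09 ± 0.23 (95% interval -0.62 to 0.45, adjusted p = 0.75) after median-of-ratios scaling and 0.24 with adjusted p = 0.38 after quantile normalization. Its places by level overlapped, 843 to 1413 in WT and 892 to 1107 in the labelled knockout. Fabp5 has 5 annotated processed pseudogenes with at least 90% identity, whose summed mean level was 1.18 TPM in WT and 1.71 TPM in the labelled knockout, and adding these to Fabp5 changed no call.

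Dbi fell least among the genes that fell. Dbi (ENSMUSG00000026385, chromosome 1, 120113280 to 120121078, minus strand) had 2213, 2444 and 2119.8 TPM in WT, and the labelled knockout had 1308, 1513 and 1491 TPM, or 63.6% of the WT mean. The log2 fold change of Dbi was -0.65 ± 0.12 with adjusted p = 7.4e-04, and -1.57 ± 0.11 after median-of-ratios scaling. Its direction held under both, and the size differed with the scaling. Hepatocyte markers also fell, with 7 of 8 called lower as deposited and 8 of 8 after median-of-ratios scaling. Over all tested genes 10.7% and 35.6% were called lower. The sums of these markers were 50655 to 68231 TPM in WT against 22416 to 25706 TPM in the labelled knockout. The part of these markers in the falls of Fabp1, Fabp2, Slc27a2 and Dbi was not tested.

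**Figure D2:**
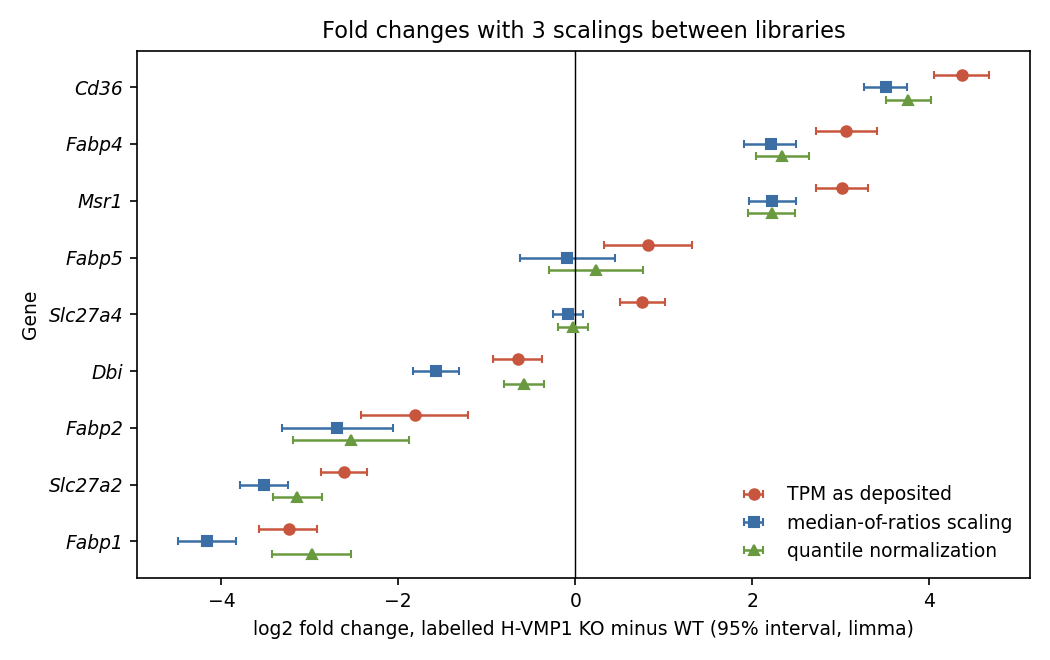
Log2 fold changes of the 9 genes (labelled H-VMP1 KO minus WT, n = 3 libraries a group) with 95% intervals from limma, for TPM as deposited, median-of-ratios scaling and quantile normalization. Cd36, Fabp4 and Msr1 lie above 0 and Dbi, Fabp2, Slc27a2 and Fabp1 below 0 with each scaling. Fabp5 and Slc27a4 have intervals that include 0 with both rescalings.

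The order of mean levels changed. In WT it was Fabp1, Dbi, Slc27a2, Fabp5, Fabp2, Slc27a4, Cd36, Fabp4 and Msr1, where the ranges of Fabp5 and Fabp2, of Slc27a4 and Cd36, and of Cd36 and Fabp4 overlapped. In the labelled knockout it was Fabp1, Dbi, Cd36, Fabp5, Slc27a2, Fabp4, Msr1, Fabp2 and Slc27a4. There the ranges of Fabp1 and Dbi, of Fabp5 and Slc27a2, and of Fabp2 and Slc27a4 overlapped. Cd36 thus stood above Slc27a2 in all labelled knockout libraries and far below it in all WT libraries.

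Ratios between genes of the same library depend little on the scaling between libraries, and 6 were compared as log2 ratios of TPM + 1. The log2 ratio of Cd36 to Slc27a2 was -6.53, -6.12 and -6.43 in WT and 0.79, 0.32 and 0.76 in the labelled knockout, a difference of 6.98. The log2 ratio of Dbi to Fabp1 went from -2.61 ± 0.17 to -0.02 ± 0.16 (SD, n = 3), so the acyl-CoA carrier came level with the fatty acid carrier. The Fabp5 to Fabp1 ratio differed by 4.06 and the Fabp4 to Fabp5 ratio by 2.24. The ratio of Fabp4 to the endothelial gene Pecam1 went from 0.85 ± 0.21 to 2.32 ± 0.16. As deposited, Pecam1 had a log2 fold change of 1.59 and the endothelial list a median of 1.36. Lyve1 on that list rose by 2.98, close to the 3.06 of Fabp4, so this ratio also depends on the marker chosen. The Msr1 to Adgre1 ratio moved less, from 0.19, 0.05 and -0.13 to 0.81, 0.55 and 0.22. The closest libraries of the groups were 0.19 and 0.22. Log2 fold changes on the macrophage and monocyte list ran from 1.39 (Cx3cr1) to 6.5 (Cd14), with a median of 2.53. Msr1, at 3.02, lay within that range, so the direction of such a ratio depends on the marker chosen. All 6 ratios separated the groups. Each gave an exact permutation p of 0.1 (two-sided), raw and adjusted over the 6, and 3 libraries against 3 can give no smaller one.

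**Figure D3:**
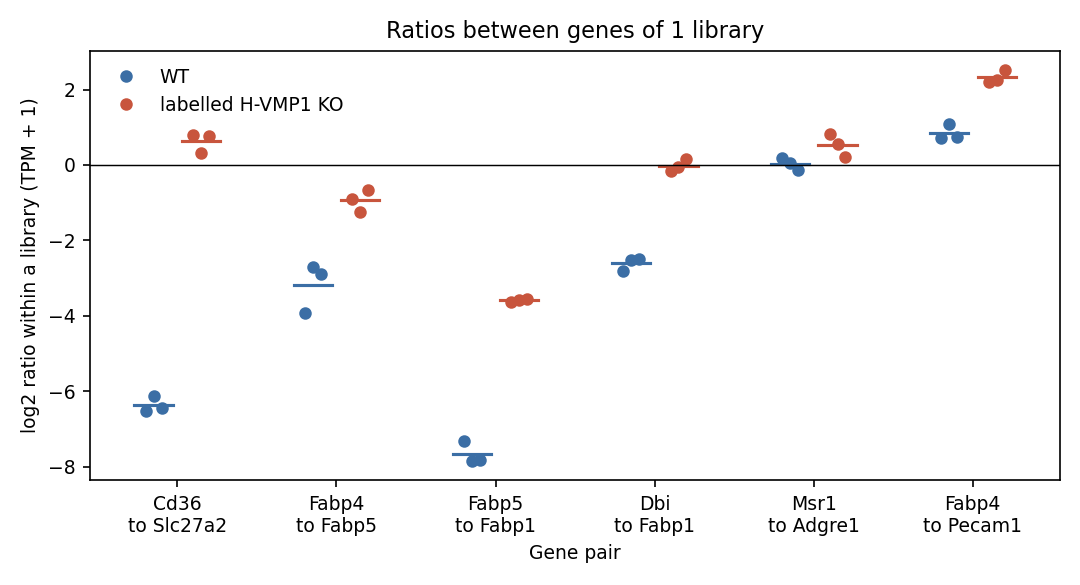
Log2 ratios of TPM + 1 between pairs of genes of the same library, for 3 WT and 3 labelled H-VMP1 KO libraries; points are libraries and short lines group means. Cd36 to Slc27a2 shows the widest gap, from a mean of -6.36 to 0.62, and Msr1 to Adgre1 the narrowest, from 0.04 to 0.53.

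The Fabp family had a lower total and another makeup in the labelled knockout. Its 10 genes summed to 15662, 14170 and 12079 TPM in WT and to 1684, 1808 and 1556 TPM in the labelled knockout. Fabp1 made up 99.1 ± 0.1% of the sum in WT and 86.5 ± 0.959% in the labelled knockout (SD, n = 3). The share of Fabp5 went from 0.492 ± 0.109% to 7.14 ± 0.134% and that of Fabp4 from 0.0485 ± 0.0124% to 3.76 ± 0.759%. Fabp7, the brain form and not among the 9, went from 0.00941% to 1.73%, and Fabp2 from 0.387% to 0.894% although its own level fell. Each of these 5 shares had groups that did not overlap, with a two-sided exact permutation p of 0.1, the smallest possible here, and the same after adjustment over the 5. The shares are parts of the same sum, so a lower Fabp1 alone makes the other shares larger. The 5 tests are therefore not separate results, and a larger share does not mean a higher level. The level of Fabp5, for example, changed by -0.09 on the log2 scale after median-of-ratios scaling. Without Fabp1 the family summed to 132 ± 30.7 TPM in WT and 227 ± 1.01 TPM in the labelled knockout. These sums are as deposited, where the median log2 fold change of all tested genes was 0.77. They were not computed after rescaling, so they do not show a change relative to other genes. The other 5 family genes, Fabp3 (the heart form), Fabp6, Fabp9, Fabp12 and Pmp2, did not exceed 0.52 TPM in any library. Fabp5, Pmp2, Fabp9, Fabp4 and Fabp12 lie next to each other on chromosome 3 between 10012548 and 10301183, and of this cluster Fabp4 and Fabp5 alone exceeded 1 TPM.

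**Figure D4:**
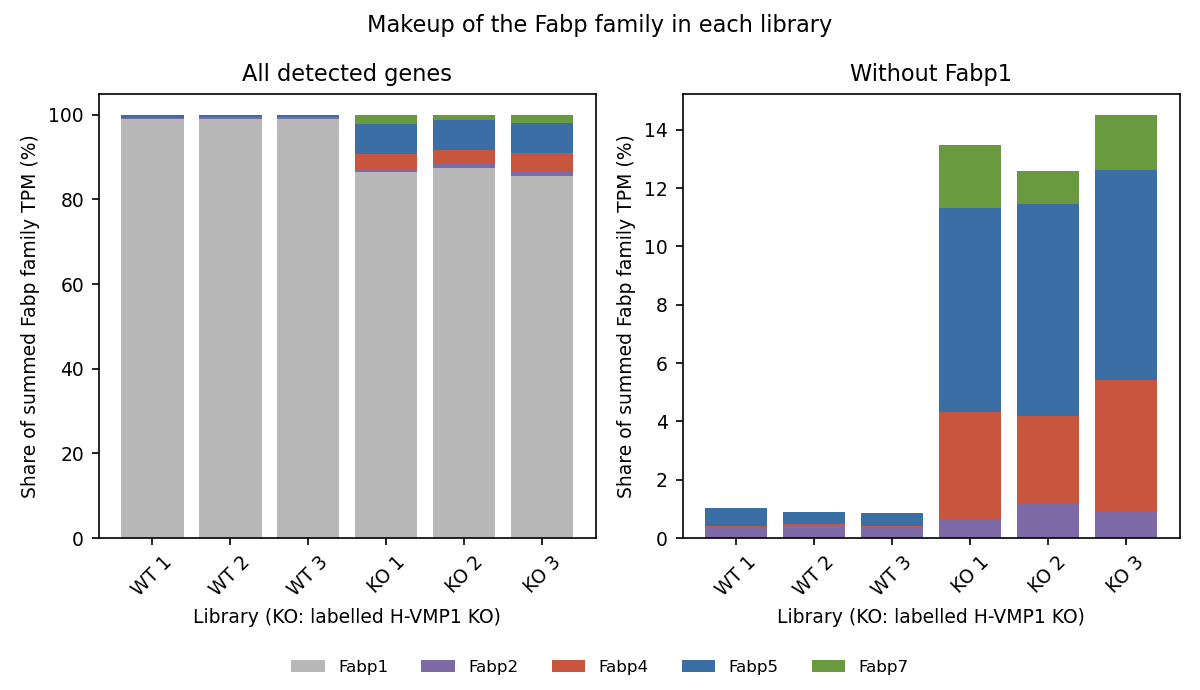
Share of each Fabp gene in the summed Fabp family TPM of each library, with all 5 detected genes on the left and without Fabp1 on the right, on a smaller axis. Bars are single libraries. Fabp1 makes up 98.9 to 99.1% in WT and 85.5 to 87.4% in the labelled knockout, where Fabp5 and Fabp4 follow.

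Related genes were read from 8 lists of 74 genes; counts "with both scalings" are of genes called both on deposited TPM and after median-of-ratios scaling. Over all tested genes 74.5% were called higher and 10.7% lower as deposited, and 36.2% and 35.6% after that scaling. Values given as "rescaled" are log2 fold changes after it. Among other fatty acid transport proteins and membrane partners, 3 of 5 tested were called higher and 1 lower, with a median log2 fold change of 0.46, and 2 and 2 with a median of -0.28 after median-of-ratios scaling. Slc27a5, the liver transporter FATP5 that also activates bile acids, fell from 290.1, 368 and 318 TPM to 71.1, 90.1 and 70.2 TPM (-2.06 ± 0.13 on the log2 scale, adjusted p = 6.7e-07, and -2.97 rescaled). It fell together with the other liver transporter, Slc27a2. Cav1 and Cav2, the caveolin genes, were under 1 TPM in every WT library, so they could be tested only because they were higher in the labelled knockout. On the list of other intracellular lipid binding proteins 2 of 11 genes were testable, and both rose. Fabp7 went from 0.93, 1.41 and 1.49 TPM to 36.1, 20.5 and 29.6 TPM (3.68 ± 0.20 on the log2 scale, adjusted p = 7.4e-07, and 2.97 rescaled).

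Genes of acyl chain activation and carriage moved in both directions. Of 4 tested long-chain acyl-CoA synthetases, Acsl1, the main liver form, fell from 317, 196 and 213 TPM to 28.9, 33.3 and 33.1 TPM, a log2 fold change of -2.86 ± 0.17 as deposited and -3.76 rescaled. Acsl4, which prefers arachidonic acid, rose by 2.40 (rescaled 1.53), and Acsl3 and Acsl5 were called higher as deposited but not with median-of-ratios scaling (0.03 and 0.17). Among other acyl-CoA and sterol carriers 2 of 5 were called higher and 2 lower, and 1 and 3 after median-of-ratios scaling. The shares over all tested genes were 74.5% and 10.7% as deposited, and 36.2% and 35.6% rescaled. Scp2, the peroxisomal sterol carrier and thiolase gene, had a log2 fold change of -1.90 (rescaled -2.82), and Acbd5, a peroxisomal tether with an acyl-CoA binding domain, -1.0 (rescaled -1.90). Acbd3, a Golgi relative of Dbi, rose by 1.51 (rescaled 0.69), and Acbd6 was 0.69 as deposited and -0.21 after rescaling. The median of the list was 0.14 as deposited and -0.76 rescaled.

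Of 11 tested scavenger receptors other than Cd36 and Msr1, 6 were called higher and 1 lower, with a median of 1.30, and the same 6 were called higher with both scalings. This is a smaller share than the 74.5% of all tested genes called higher as deposited, and a larger one than the 36.2% rescaled. Of the 6, Scara3 could be tested only because it was higher in the labelled knockout, while 3 of the 11 were called lower after median-of-ratios scaling. Marco, a class A receptor of Kupffer cells, went from 3.61, 4.03 and 3.04 TPM to 185, 93.1 and 176 TPM, or 5.0 ± 0.27 on the log2 scale and 4.18 rescaled. Cd68, a macrophage lysosomal protein, rose by 4.45 on the log2 scale (rescaled 3.60), and both genes are on macrophage marker lists too. Scarb1, the HDL receptor of hepatocytes, was the gene called lower, at -0.33 (rescaled -1.23) with adjusted p = 0.02, and this call was lost with no filter on low values (adjusted p = 0.052). The list of CD36 palmitoylation and signalling partners had 4 of 5 called higher as deposited, and 2 higher and 1 lower after median-of-ratios scaling, near the shares over all genes as deposited (74.5%) and rescaled (36.2%). Lyn, a Src-family kinase, rose by 1.38 (rescaled 0.54), while Zdhhc4, a palmitoyltransferase of CD36, was 0.78 as deposited and -0.09 after rescaling.

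Of 13 transcription factors known to act on these genes, 5 were called higher and 3 lower as deposited, with a median of 0.11, and 3 higher and 9 lower after median-of-ratios scaling, with a median of -0.74. Among all tested genes the shares called higher and lower were 74.5% and 10.7% as deposited, and 36.2% and 35.6% rescaled. Ppara, the fasting-responsive receptor that drives Fabp1, fell from 24.1, 27.6 and 25.3 TPM to 6.4, 5.45 and 7.88 TPM, or -1.83 ± 0.13 on the log2 scale (adjusted p = 1.1e-06, and -2.66 rescaled). Cebpa, a hepatocyte factor, had a log2 fold change of -0.82 (rescaled -1.73). Pparg, the receptor that drives Cd36 and Fabp4 in fat and macrophages, went from 4.04, 6.29 and 3.34 TPM to 13.2, 11.4 and 14.9 TPM, or 1.37 ± 0.19 on the log2 scale as deposited and 0.57 with adjusted p = 0.016 after median-of-ratios scaling. Nfe2l2, the antioxidant regulator NRF2, rose by 1.91 (rescaled 1.01) and Ppard by 1.61 (rescaled 0.88). Ppara thus fell while Pparg and Ppard rose, with both scalings.

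Of 12 PPARalpha target genes, 8 were called lower and 3 higher with both scalings, and the list's median was -1.24. The shares of all tested genes called lower and higher with both were 10.7% and 36.2%. After median-of-ratios scaling 9 were called lower. Angptl4, an inhibitor of lipoprotein lipase and one of the 8 at -0.53 with adjusted p = 0.029, lost its call with no filter (adjusted p = 0.071) and with the replicate block (adjusted p = 0.063). Cyp4a10 and Cyp4a14, fatty acid omega-hydroxylases, had log2 fold changes of -4.04 and -2.85 (rescaled -4.91 and -3.69). Pdk4, which restrains pyruvate use, rose by 3.26 (rescaled 2.55) and Plin2, a lipid droplet coat, by 1.80. Plin2 was called with median-of-ratios scaling too, at 0.88 with adjusted p = 0.043.

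**Figure D5:**
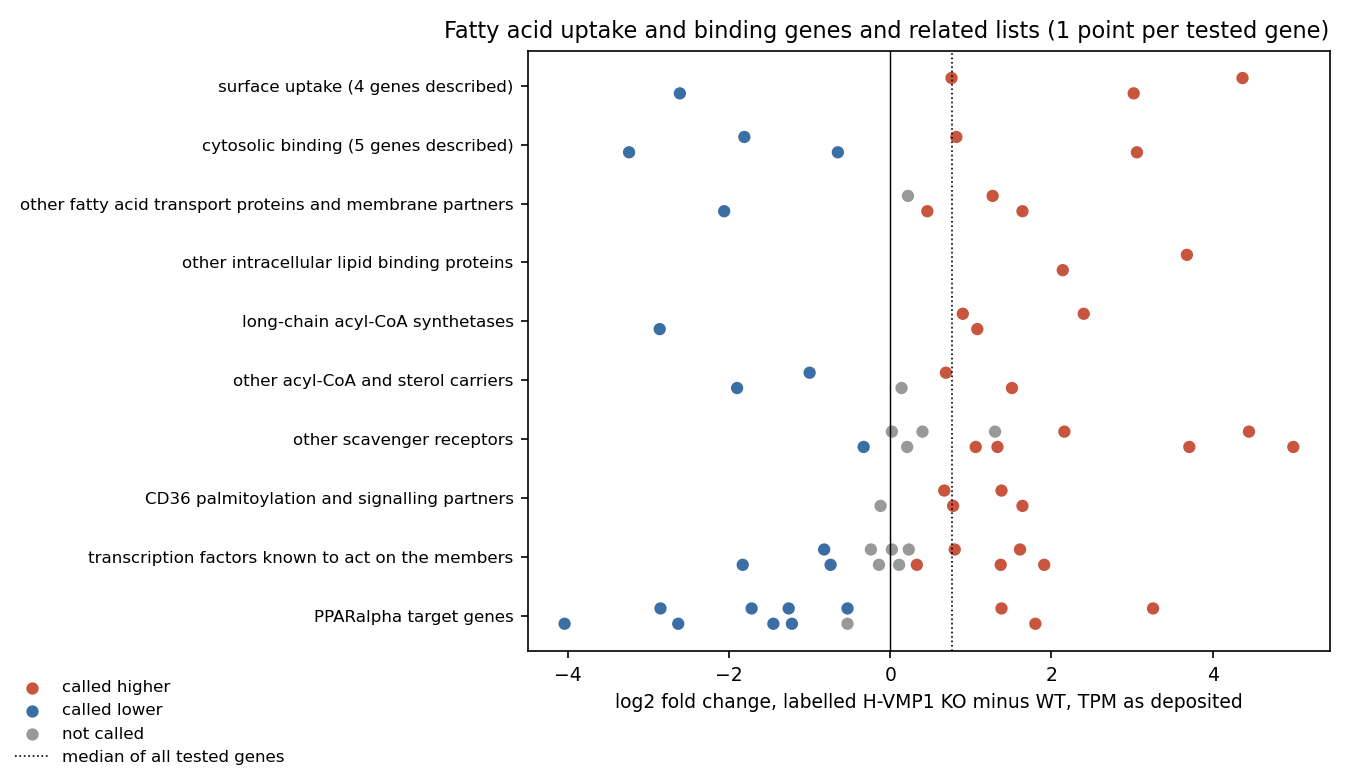
Log2 fold changes as deposited (labelled H-VMP1 KO minus WT) of every tested gene of the 9 described and of 8 related lists, 1 point a gene, coloured by the limma call. The dotted line is the median of all tested genes, 0.77. Scavenger receptors reach 5.0 (Marco), and 8 of 12 PPARalpha targets lie below 0 and are called lower. As deposited, 74.5% of all tested genes were called higher and 10.7% lower.

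Other cell type markers moved with these changes. Over all tested genes 74.5% were called higher and 10.7% lower as deposited, and 36.2% and 35.6% after median-of-ratios scaling. Called higher were 9 of 9 Kupffer cell markers (sums of 129 to 229 TPM in WT and 1246 to 1736 in the labelled knockout), 7 of 7 of lipid-associated macrophages (157 to 207, and 1384 to 1488; Trem2 and Gpnmb were testable only through the labelled knockout) and 8 of 8 of stellate cells (47.6 to 51.9, and 241 to 277). Col1a1, Des and Pdgfrb of the stellate list reached 1 TPM in only 1 WT library each, so they too passed the filter through the labelled knockout. Smaller lists also rose in the tested genes: 4 of 4 for bile duct, 3 of 3 for neutrophils and 5 of 5 for lymphocytes, most of which could be tested only because they were higher in the labelled knockout. Each of these counts was the same after median-of-ratios scaling, but not after quantile normalization. With the latter, the lymphocyte genes Cd2, Cd79a, Cd79b and Nkg7 were among those not called. Krt19 (bile duct), Hand2 (stellate cells) and Timd4 (Kupffer cells) also lost their call. Adjusted p from limma for these genes ran from 0.053 (Timd4) to 0.78 (Krt19). Of the platelet and red cell list 3 of 6 were called higher and 1 lower as deposited, and 1 higher and 2 lower after median-of-ratios scaling. Pf4, called higher with both, also reached 1 TPM in only 1 WT library. Of the adipocyte list 1 of 2 tested was called higher and 1 lower, and of the enterocyte list 1 of 2, Apoa4, was called higher.

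The genes nearest to Cd36 and Fabp1 over the 6 libraries were found by the root mean square distance of centred log2(TPM + 1) values, among 11625 tested genes. Nearest to Cd36 were Cd68 (0.10), Serpinb6a (0.11), a serine protease inhibitor gene, and Nqo1 (0.11), a quinone reductase and NRF2 target. Nqo1 went from 2.84 ± 0.9 to 89 ± 6.19 TPM. Nearest to Fabp1 were Hectd2os (0.08), a noncoding gene, Cmah (0.15), a sialic acid hydroxylase gene, and the pseudogene Gtpbp4-ps1 (0.20). These genes are far less abundant than Fabp1, with WT means of 14.3, 19.1 and 10.3 TPM, and the pseudocount limits their fold change in the labelled knockout, where they were near 1 TPM or below.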

How the data were processed

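RNA from 6 liver samples, 3 per group, was measured as 1 library each. The authors deposited 1 table in TPM for the whole series, with 1 column per library, and every column sums to 1000000. Column names matched sample titles, and 0 columns were left unmapped. Tools and builds listed, without roles, in the submitters' processing notes are STAR 2.6.1c, RSEM, edgeR and mm10. Strand handling is not given in the sources used here. TPM depends on the library's own total, so abundant genes move all others. All 55536 identifiers matched GENCODE M21 (GRCm38, also called mm10).

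Genes that reached 1 TPM in 3 or more libraries (12796) were fitted on log2(TPM + 1) with limma 3.58.1 in R 4.3.3 (intensity trend, robust variances, no replicate block), with Benjamini-Hochberg adjustment over all of them at 0.05. The fit was tested on simulated data in which a limited set of genes changed, equally often up and down, with no shift of all genes. Most genes shifted in the real data as deposited, so the simulation cannot speak to the choice of scaling. For shares and ratios within a library an exact permutation test (two-sided, 20 assignments) was used. Near-identical copies were sought with blastn 2.17.0 among GENCODE transcripts (at least 90% identity over at least 50% of the shorter one). Figures used matplotlib 3.10.9. Shares are given for the 5 Fabp genes that reached 1 TPM in some library, which was decided with the values known.

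The genes, the lists (8 of related genes and 12 of markers) and the tests were chosen with earlier results of these data known. From each related list up to 2 called genes per direction were named, those with the largest change among genes with separate groups and a mean of 5 TPM or more, with Vmp1, Slc27a5, Fabp3, Marco, Adgre1, Pecam1, Adipoq, Vil1, Pparg, Ppara and the 3 nearest genes of Cd36 and of Fabp1, predicted genes left out. Acsl3, Angptl4, Scara3, Cav1 and Cav2 fall outside this rule. So do the marker genes named for their filter, for a call lost with quantile normalization, or as enterocyte or adipocyte markers. All of these were picked with their values known. A further gene picked by this rule is left out of the text. Alternatives changed the pseudocount, filter, scaling, variance model, threshold and block, summed near-identical copies, and left out each library.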

Additional observations from a re-analysis of the deposited data

How the results depend on the processing

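The fold changes of Cd36, Msr1, Fabp1, Fabp2, Fabp4, Slc27a2 and Dbi kept their direction and their call under all 19 alternatives run. Slc27a4 changed sign, to -0.08 under median-of-ratios scaling and -0.03 under quantile normalization, and Fabp5 to -0.09 with the first and to 0.24 (adjusted p = 0.38) with the second. These scalings bring the median gene close to no change by construction, and moved fold changes by a median of -0.81 and -0.79. With quantile normalization not every gene moved down: Fabp1 went from -3.24 to -2.98 and Dbi from -0.65 to -0.58, while the other 7 of the 9 genes moved down. Of the 9 genes, 3 were then called higher in place of 5, with each of these scalings. Over all genes, 9537 higher and 1369 lower became 4634 and 4552 with median-of-ratios scaling and 4520 and 4534 with quantile normalization, and 6209 were higher where a mean of at least 5 TPM left 8428 genes to test. Of 57 tested genes of the related lists, 28 were called higher and 16 lower as deposited, and 20 and 28 with median-of-ratios scaling. For all tested genes the shares went from 74.5% higher and 10.7% lower to 36.2% and 35.6%. Leaving out 1 library at a time gave log2 fold changes of 0.64 to 1.08 for Fabp5 (adjusted p up to 0.036) and -2.07 to -1.59 for Fabp2. With the replicate number as a block 9427 genes were higher and 1333 lower, and the calls of all 9 genes were as without it. Deviations of same-numbered libraries from their group means had correlations over genes of 0.076, 0.04 and -0.115, and not every library correlated best with its own. With so few libraries these correlations cannot show whether same-numbered libraries were handled together. The shares and ratios kept their direction under the alternatives run for them. Depth is unknown, so counting error cannot be given.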

Other observations

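Some values stood out within groups and are given without explanation, chosen after they were seen. WT replicate 1 was the highest of the WT libraries for Fabp5 (96.8 TPM, against 60.3 and 52.4), for the acyl-CoA synthetase gene Acsl1 (317 TPM, against 196 and 213) and for the lipid droplet gene Plin2 (478 TPM, against 226 and 221). In the labelled knockout, replicate 2 was the lowest for Cd36 (162 TPM), Msr1 (24.1 TPM), Fabp4 (54.7 TPM), Fabp7 (20.5 TPM) and Marco (93.1 TPM), and the highest for Fabp1 (1580.2 TPM), Fabp2 (21.2 TPM) and Slc27a2 (130 TPM). The summed Fabp genes other than Fabp1 were nearly equal in the labelled knockout, at 226.9, 228 and 226 TPM, while Fabp2, Fabp4, Fabp5 and Fabp7 each varied more.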
